A study of Mus musculus with 6 samples.

Results

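Treatment of RVP3 tumour cells with DAC and TSA went with a readable signal on every treated array for 77 genes read at a probe that lay at the level of the array background in control cells. For 10 of these genes another, brighter probe was detected on all control arrays, as was a dimmer probe of Cyp27a1. The 77 genes were chosen by a rule on the measured values. All 3 control values of a probe had to be under 5.8 and all 3 DAC/TSA values at 6.5 or more. The scale was the quantile-normalised log2 scale of the deposited value table, and the probe of highest mean was kept for a gene. Of 8734 named genes in that table, 101 met these limits, and 24 of those were left out by their symbols (for example solute carriers, keratins, glutathione transferases, class II H2 genes and the germline gene Rhox5), which leaves the 77 members. Because the rule used the contrast between the groups, the level and the change of the members are given as a description, with no test.

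RVP3 is a mouse tumour line of C57BL/6 background, grown in vitro. DAC/TSA cells were kept in fresh medium for 24 h, then in 3 µM DAC (5-aza-2′-deoxycytidine) for 48 h and finally in 30 ng/ml TSA (trichostatin A) for 24 h, and the control cells are labelled as untreated. Total RNA of 3 DAC/TSA and 3 control cultures was hybridised to Illumina Mouse WG-6 bead arrays, 1 array for each sample. All DAC/TSA samples received both agents, so that the share of either agent cannot be told apart, and no vehicle is named in the labels.

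DAC is built into DNA and traps DNA methyltransferases, so that methyl groups at CpG dinucleotides are lost as cells divide. TSA blocks histone deacetylases, and acetylated histones go with open chromatin. Genes that belong to other tissues or to the germ line are often held silent in a given cell type by such marks, and testis genes, cornified envelope genes and synaptic genes are textbook cases of expression restricted to 1 kind of cell. DNA methylation and histone acetylation were not measured on these arrays.

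A probe counts as detected when its detection p-value, the chance that a negative control bead gives as much signal, is 0.01 or less. The lowest signal of any detected probe was 5.75, 5.70 and 5.67 log2 units on DAC/TSA arrays 1 to 3, against 5.85, 5.77 and 5.74 on control arrays 1 to 3. Of the 77 members, 72 were detected on no control array, 5 (Sort1, Bdkrb1, Sbsn, 2700046G09Rik and Bdnf) were detected on 1 control array, and all 77 were detected on all 3 DAC/TSA arrays. The name "clearly visible" covers modest signals: the mean after DAC/TSA was under 7 for 40 members, above 7.27, the median of the value table, for 23, and at 8 or more for 5 (Ggt7, Tcea3, Rsph1, Mgst3 and Wnt6). In RNA from whole cultures, a gene turned on in few cells and a weak rise in all cells cannot be told apart. Since control values of undetected probes are only bounds, folds are written as "at least", the mean after DAC/TSA over the control mean with every control value raised to its array's lowest detected signal where it was below it.

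DAC/TSA arrays were slightly brighter, with a median signal of 42.65 to 45.87 before normalisation, against 39.96 to 42.94 on control arrays, and 72 of the 77 members met the limits also when the arrays were scaled to equal medians. They detected 14101 to 15056 of 45281 probes, and control arrays detected 13227 to 14261. Correlations of all log2 signals were 0.992 to 0.996 within a group and 0.966 to 0.972 between groups. By these correlations no array stood apart from its group. Before normalisation, array 3 had the lowest median and the highest mean signal in each group. Across all genes, limma called 27.0% of 8734 higher and 25.8% lower after DAC/TSA at an adjusted p of 0.01 or less, with a median change of -0.02. At the probe that met the rule all 77 members were called higher, which the choice of members fixes.

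Promoters of 6 members are shown because CpG is the site at which DNA is methylated, and they differ widely in how many they hold. All are from RefSeq on GRCm38.p6, run 5′ to 3′ on the coding strand from 250 bases before to 50 bases after the annotated start, and have each CpG in capitals. Of the 20 members with the largest change and a promoter in the table, Bmper and Wnt6 held the most CpG and Lamb3 and Vmn1r123 the fewest, and Dmkn and Sbsn are shown because they lie side by side in the genome.
Bmper, chr9:23222826-23223125, plus strand: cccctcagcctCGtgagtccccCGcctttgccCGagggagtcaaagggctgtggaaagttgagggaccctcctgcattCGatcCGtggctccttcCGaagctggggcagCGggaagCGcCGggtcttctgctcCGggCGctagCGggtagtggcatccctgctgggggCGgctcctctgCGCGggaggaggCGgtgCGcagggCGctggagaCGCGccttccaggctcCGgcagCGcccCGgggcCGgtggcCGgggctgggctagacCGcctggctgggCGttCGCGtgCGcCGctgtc
Wnt6, chr1:74771642-74771941, plus strand: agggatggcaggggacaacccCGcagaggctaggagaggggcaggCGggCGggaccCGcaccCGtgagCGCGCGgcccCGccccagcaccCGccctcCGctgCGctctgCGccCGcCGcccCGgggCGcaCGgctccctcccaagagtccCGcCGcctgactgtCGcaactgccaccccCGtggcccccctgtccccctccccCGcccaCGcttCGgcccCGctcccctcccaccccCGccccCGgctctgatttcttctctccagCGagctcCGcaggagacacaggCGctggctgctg
Dmkn, chr7:30763506-30763805, plus strand: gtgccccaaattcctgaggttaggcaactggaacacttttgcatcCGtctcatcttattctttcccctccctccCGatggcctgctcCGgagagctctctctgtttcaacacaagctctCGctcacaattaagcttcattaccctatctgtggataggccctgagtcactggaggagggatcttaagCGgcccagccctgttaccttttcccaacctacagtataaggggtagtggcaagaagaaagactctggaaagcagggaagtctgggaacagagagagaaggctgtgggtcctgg
Sbsn, chr7:30751221-30751520, plus strand: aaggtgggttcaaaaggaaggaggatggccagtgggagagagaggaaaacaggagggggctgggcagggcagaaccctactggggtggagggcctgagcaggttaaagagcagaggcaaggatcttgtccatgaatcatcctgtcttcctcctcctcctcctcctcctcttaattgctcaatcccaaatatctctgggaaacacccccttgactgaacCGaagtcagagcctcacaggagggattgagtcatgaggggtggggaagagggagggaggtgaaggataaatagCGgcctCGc
Lamb3, chr1:193301744-193302043, plus strand: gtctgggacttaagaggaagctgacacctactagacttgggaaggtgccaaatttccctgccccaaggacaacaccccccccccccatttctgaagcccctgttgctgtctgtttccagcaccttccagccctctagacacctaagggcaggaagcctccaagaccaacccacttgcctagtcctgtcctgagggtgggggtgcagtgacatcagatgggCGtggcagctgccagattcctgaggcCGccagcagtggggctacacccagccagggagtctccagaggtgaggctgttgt
Vmn1r123, chr7:21161935-21162234, plus strand: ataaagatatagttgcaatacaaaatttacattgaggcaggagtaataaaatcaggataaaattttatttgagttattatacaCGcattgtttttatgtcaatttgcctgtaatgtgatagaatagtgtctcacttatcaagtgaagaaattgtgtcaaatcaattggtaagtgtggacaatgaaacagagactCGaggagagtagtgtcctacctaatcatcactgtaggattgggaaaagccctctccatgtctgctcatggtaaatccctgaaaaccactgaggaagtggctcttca

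The Bmper and Wnt6 windows hold 31 CpG each, more than 89.7% of 27025 RefSeq mouse promoters of the same length, whose median is 7. Dmkn has 5, Sbsn 3, and Lamb3 and Vmn1r123 have 2 each, so that 76.2% of promoters hold more than these last 2. The GC-box letters GGGCGG, searched on both strands, are in Bmper and Wnt6 and in 35.9% of all promoters. TGANTCA, the letters of an AP-1 element, are in Sbsn and Dmkn and in 7.93% of all promoters, while TATAAA and CACGTG, in 14.2% and 7.24% of all promoters, are in none of the 6. These matches describe letters in a window and not a bound site. Of the 77 members, 54 (70.1%) had a promoter in the table, under the 80% needed, so a comparison of CpG content between members and other genes is void.

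The change over the members had a median of 1.51 log2 units, quartiles of 1.28 and 1.86 and a range of 1.06 (Pbp2) to 3.10 (Ggt7). A change of 2 or more was seen for 13 members, and 39 had 1.5 or more. The SD between the 3 arrays of a group was small beside these changes, with a median over members of 0.11 after DAC/TSA and 0.09 in control cells. The distance between the lowest DAC/TSA and the highest control value was between 0.86 and 2.94 log2 units. The limits of the rule impose such a separation on every member. Array DAC/TSA 1 was the highest for 38 members, DAC/TSA 2 for 20 and DAC/TSA 3 for 19, and the median over members was 7.0, 7.03 and 6.95 on those arrays, against 5.46, 5.52 and 5.52 on control arrays 1 to 3.

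**Figure D1:**
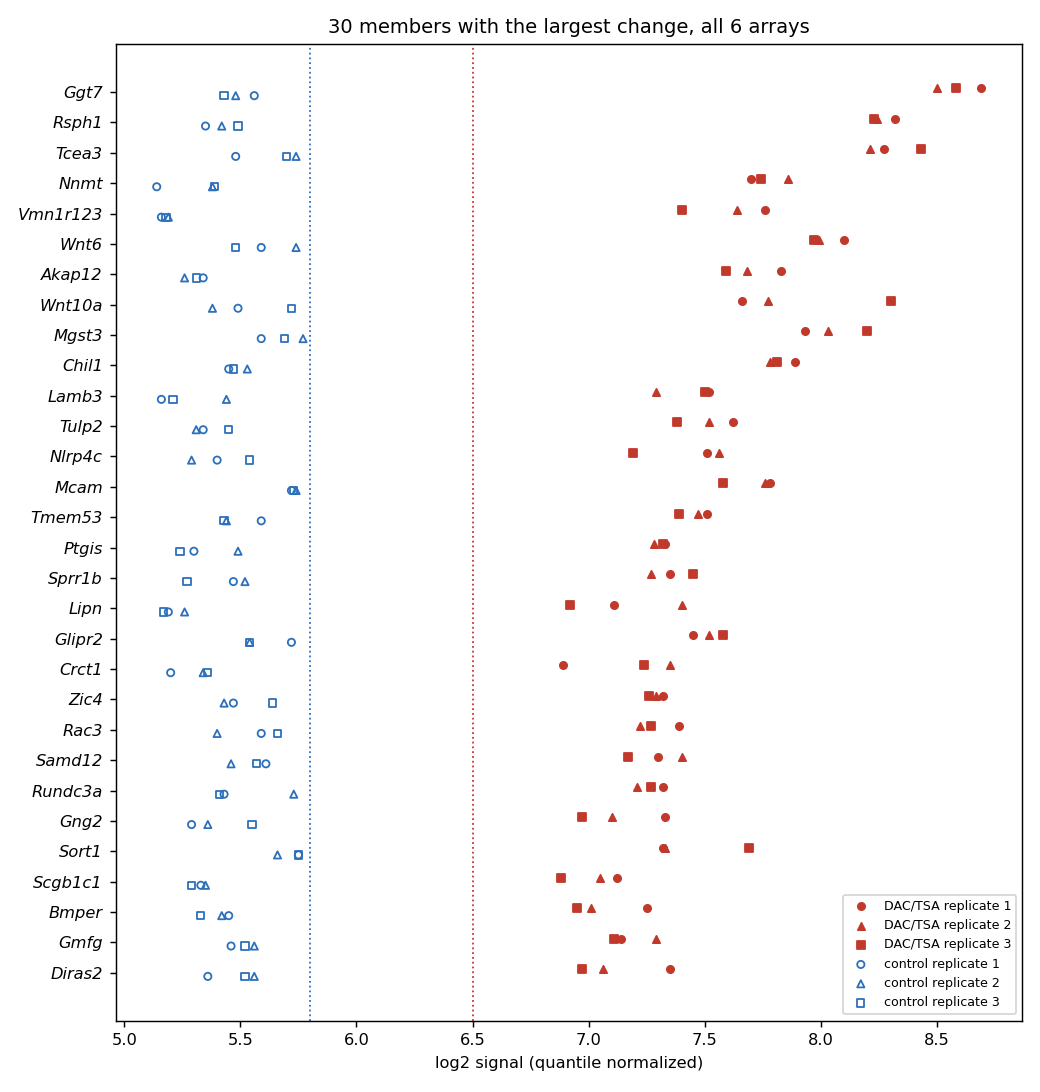
Log2 signal (x axis, quantile-normalised) of the 30 members with the largest change, with filled red symbols for the 3 DAC/TSA arrays and open blue symbols for the 3 control arrays. Dotted lines mark the limits of the rule, 5.8 and 6.5, and Wnt10a, Lipn and Crct1 show the widest scatter after DAC/TSA among those plotted.

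Genes just inside and just outside the limits had close values. Highest control values just inside the limit were 5.79 for Itga7 and Bdnf, and Rgs3, with 5.8, fell just outside although its lowest DAC/TSA value was 7.22. Lowest DAC/TSA values just inside were 6.51 for H13 and Hao1. Lacc1 and Cyp4f16 with 6.48 fell outside, as did Dppa4, an early embryo gene, with 6.46 and a change of 1.51.

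By tissue and function, the members were sorted into 10 groups by hand after their values were known. Neuronal genes (10), skin, surface epithelium and gland genes (9) and metabolic enzymes (9) were the most numerous named groups, with 13 genes of no clear group. The median change was highest for the 6 germ cell, cilium and chemosensory genes, 2.08, and between 1.33 and 1.69 in all other groups. Every group except cell signalling and cytoskeleton held a member with a change under 1.3.

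**Figure D2:**
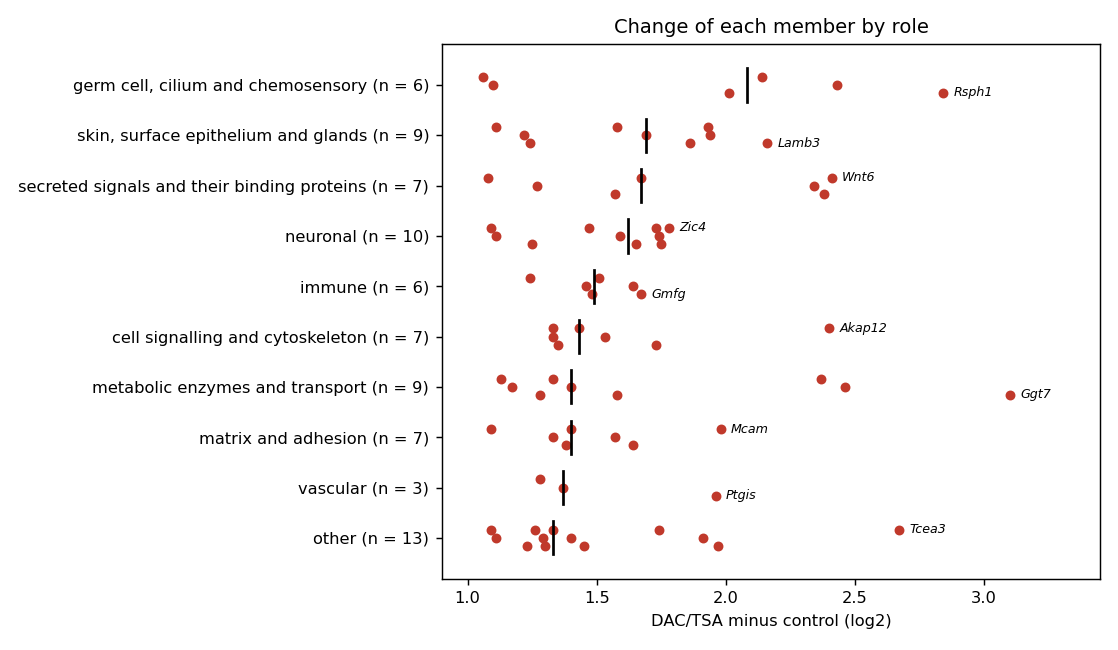
Change of each of the 77 members (DAC/TSA minus control, log2, x axis) by group, with a black bar at the group median and the member of largest change named. Changes run from 1.06 to 3.10 over all members, and the ranges of the groups overlap in part of that span. The germ cell, cilium and chemosensory group has the highest median, 2.08.

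Among germ cell, cilium and chemosensory genes, Rsph1, a radial spoke protein of motile cilia and sperm tails, was at 8.32, 8.24 and 8.23 after DAC/TSA, against 5.35, 5.42 and 5.49 in control cells. The 3 treated arrays lay within 0.09 of each other, far above all controls. Its change was 2.84 ± 0.09 (SE, n = 3 each), at least 5.57-fold. Vmn1r123, of the vomeronasal pheromone receptor family, had 7.76, 7.64 and 7.40 after DAC/TSA, against 5.16, 5.19 and 5.18 in control cells, at least 3.52-fold. Its control values were among the lowest of any member, and array DAC/TSA 3 was the lowest treated array. Sequence shared within this large receptor family may keep a probe from telling its genes apart, which was not checked here. Tulp2, a tubby-like gene of the testis, had 7.62, 7.52 and 7.38 after DAC/TSA, against 5.34, 5.31 and 5.45 in control cells. Nlrp4c, an NLR family gene of the oocyte, was at 7.51, 7.56 and 7.19 after DAC/TSA, against 5.40, 5.29 and 5.54 in control cells. For both genes array DAC/TSA 3 was the lowest treated array, and the folds were at least 3.30 and at least 3.10. The testis genes Tex9 and Pbp2 changed least in this group, by 1.10 and 1.06.

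The 9 skin, surface epithelium and gland genes changed by 1.11 to 2.16. Lamb3, a chain of the laminin that anchors the epidermis to its basement membrane, had 7.52, 7.29 and 7.50 after DAC/TSA, against 5.16, 5.44 and 5.21 in control cells, a change of 2.16 ± 0.10. Sprr1b, a small proline-rich precursor of the cornified envelope, had 7.35, 7.27 and 7.45 after DAC/TSA, against 5.47, 5.52 and 5.27 in control cells, a change of 1.94 ± 0.10. The treated arrays of both genes scattered by under 0.25. Crct1, a gene of the same epidermal differentiation region, had 6.89, 7.35 and 7.24 after DAC/TSA, against 5.20, 5.34 and 5.36 in control cells. Lipn, a lipase of keratinising epidermis, had 7.11, 7.40 and 6.92 after DAC/TSA, against 5.19, 5.26 and 5.17 in control cells. Both were highest on array DAC/TSA 2 and changed by 1.86 ± 0.12 and 1.93 ± 0.11. Sbsn (suprabasin) and Dmkn (dermokine), secreted by the upper epidermis, were at the low end with changes of 1.11 ± 0.09 and 1.22 ± 0.09. Gland and epithelial genes completed the group: Scgb1c1, a secretoglobin of the nose, changed by 1.69, Cldn10, a tight junction claudin, by 1.58, and Napsa, an aspartic protease of lung and kidney, by 1.24.

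Of the secreted signals, Wnt6 and Wnt10a, ligands of the Wnt pathway with roles in skin and its appendages, were most changed. Wnt6 had 8.10, 7.99 and 7.97 after DAC/TSA, against 5.59, 5.74 and 5.48 in control cells, a change of 2.41 ± 0.09 and at least 4.69-fold. Wnt10a had 7.66, 7.77 and 8.30 after DAC/TSA, against 5.49, 5.38 and 5.72 in control cells, a change of 2.38 ± 0.15. The Wnt6 arrays of a group lay close together, whereas array 3 was the highest of both groups for Wnt10a. Chil1, a chitinase-like secreted lectin of macrophages, cartilage and some tumours, had 7.89, 7.78 and 7.81 after DAC/TSA, against 5.45, 5.53 and 5.47 in control cells, at least 4.11-fold. Bmper, which binds bone morphogenetic proteins outside the cell, had 7.25, 7.01 and 6.95 after DAC/TSA, against 5.45, 5.42 and 5.33 in control cells, a change of 1.67 ± 0.10. The gap between the lowest treated and the highest control value was 2.25 for Chil1 and 1.5 for Bmper. Igfbp7, a secreted binding protein of insulin-like growth factors, had 6.69, 6.68 and 7.50 after DAC/TSA, against 5.24, 5.34 and 5.6 in control cells. Array 3 was again the highest in both groups, and the SD of 0.47 after DAC/TSA was the largest of all members. The neurotrophin Bdnf and Crhbp, which binds corticotropin-releasing hormone, changed by 1.08 and 1.27.

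Metabolic enzymes held the largest single change. Ggt7, a member of the γ-glutamyltransferase family that handles glutathione, had 8.69, 8.50 and 8.58 after DAC/TSA, against 5.56, 5.48 and 5.43 in control cells, a change of 3.10 ± 0.09 and at least 6.97-fold. In deposited signal units this was 404, 344 and 462 after DAC/TSA, against 46.3, 43.4 and 40.2 in control cells. All treated arrays were several times brighter than any control. Nnmt, which methylates nicotinamide with S-adenosylmethionine as donor, had 7.70, 7.86 and 7.74 after DAC/TSA, against 5.14, 5.38 and 5.39 in control cells. Mgst3, a microsomal glutathione transferase, had 7.93, 8.03 and 8.20 after DAC/TSA, against 5.59, 5.77 and 5.69 in control cells. The changes were 2.46 ± 0.10 for Nnmt and 2.37 ± 0.10 for Mgst3. Cyp27a1, the mitochondrial sterol hydroxylase of bile acid synthesis, had 7.18, 7.22 and 6.98 after DAC/TSA, against 5.73, 5.77 and 5.69 in control cells, a change of 1.40 ± 0.09. A dimmer probe of Cyp27a1, detected on all 3 control arrays, changed by 0.81. The other 5, Sat2, Renbp, St6galnac2, Aqp11 and the liver peroxisomal oxidase Hao1, changed by 1.13 to 1.58.

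The 10 neuronal genes changed by 1.09 to 1.78, a narrower range than in the groups above. Zic4, a zinc finger factor of the developing cerebellum, had 7.32, 7.29 and 7.26 after DAC/TSA, against 5.47, 5.43 and 5.64 in control cells. Syp (synaptophysin), a protein of synaptic vesicles, had 7.09, 7.08 and 7.03 after DAC/TSA, against 5.44, 5.36 and 5.63 in control cells. Eno2, the enolase of neurons, had 6.84, 6.87 and 6.88 after DAC/TSA, against 5.77, 5.77 and 5.73 in control cells. The treated arrays were nearly equal for all 3 genes. The changes were 1.78 for Zic4, 1.59 for Syp and 1.11 for Eno2. Rac3, a Rac GTPase of neurons, Rundc3a, the sorting receptor Sort1 and the Ras-like GTPase Diras2 changed by 1.65 to 1.75, and Lynx1, a modulator of nicotinic acetylcholine receptors, by 1.47. B4galnt4 (1.25) and Srr, the serine racemase that makes D-serine (1.09), were the lowest beside Eno2. At its 2 brighter probes, detected on all control arrays, Srr changed by -0.87 and -0.96.

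The 6 immune and 3 vascular members had means of 6.68 to 7.31 after DAC/TSA. Ccl4, a chemokine of macrophages and T cells, had 6.78, 6.75 and 6.54 after DAC/TSA, against 5.17, 5.26 and 5.19 in control cells, at least 1.87-fold. Cd40, a costimulatory receptor of antigen-presenting cells, had 6.73, 6.71 and 6.60 after DAC/TSA, against 5.40, 5.54 and 5.35 in control cells, at least 1.85-fold. For both, array DAC/TSA 3 was the lowest treated array. Alox5ap, needed for leukotriene synthesis, changed by 1.51, Irak3, a brake on Toll-like receptor signalling, by 1.46, P2ry14, a receptor for UDP-sugars, by 1.64, and Gmfg, an actin regulator of blood cells, by 1.67. Ptgis, the prostacyclin synthase of vessel walls, had 7.33, 7.28 and 7.32 after DAC/TSA, against 5.30, 5.49 and 5.24 in control cells, a change of 1.96 ± 0.09. Nos3, the nitric oxide synthase of endothelium, had 6.98, 7.25 and 6.99 after DAC/TSA, against 5.70, 5.71 and 5.71 in control cells, a change of 1.37 ± 0.10. The bradykinin receptor Bdkrb1 changed by 1.28.

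Leukocyte markers were checked beside the immune members. Of 9 listed markers 6 were measured and 3 were not in the table. Of the 6, 4 (Cd52, Laptm5, Lyz1 and Lyz2) were detected on no control array and on all 3 DAC/TSA arrays. Signals of the 6 summed to 493 to 498 on DAC/TSA arrays, against 277 to 308 on control arrays. Lyz1 rose most (7.46 after DAC/TSA, against 5.36 in control cells), and it met the limits of the rule but was left out by its symbol. Cd79b and Coro1a went the other way, with changes of -0.48 and -0.27, the second at an adjusted p of 0.0372 by limma. Of 6 endothelial markers 3 were measured, with sums of 1710 to 1960 after DAC/TSA, against 397 to 442 in control cells, the higher sum going with Egfl7 (10.70 after DAC/TSA, against 7.46 in control cells). Kdr stood at 5.71 after DAC/TSA, against 5.76 in control cells, and Esam fell to 6.86 after DAC/TSA, against 7.54 in control cells (adjusted p = 3.6e-05, limma). Whether other cells had a part in the immune or vascular members was not tested. For the skin members, 4 of 7 epithelial markers were measured, with sums of 2520 to 3150 after DAC/TSA, against 2270 to 3000 in control cells, and the 4 did not move together. Krt14 and Cldn4 were higher, with changes of 2.47 and 0.91, while Krt8 and Krt18 had changes of -0.16 and -0.34 that missed the threshold (adjusted p = 0.343 and 0.0405, limma). For the neuronal members, Syp, itself a member, was the only 1 of 6 neural markers measured. Krt8 stood at 10.84 after DAC/TSA, against 11.00 in control cells. Of 9 mesenchymal markers 4 were measured, all detected on every array, and they moved in both directions. Vim and Sparc had means above 10 log2 units in both groups, with changes of 0.27 and 0.29 that limma did not call. Fn1 rose to 11.31 after DAC/TSA, against 9.04 in control cells. Pdgfra fell to 8.63 after DAC/TSA, against 9.08 in control cells (limma, adjusted p = 0.00418), a fall not called with median scaling (limma, adjusted p = 0.202).

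Among matrix, adhesion, signalling and cytoskeletal members, Akap12 and Mcam changed most. Akap12, a scaffold that holds protein kinases A and C, had 7.83, 7.68 and 7.59 after DAC/TSA, against 5.34, 5.26 and 5.31 in control cells, at least 3.77-fold. Mcam (CD146), an adhesion molecule of vessels and melanoma, had 7.78, 7.76 and 7.58 after DAC/TSA, against 5.72, 5.74 and 5.73 in control cells, at least 3.79-fold. Their groups were separate by more than 1.8 log2 units. The other 6 matrix and adhesion genes, which include the laminin-binding integrin Itga7 (1.64), the hyaluronan synthase Has2 (1.33) and the membrane metalloprotease Mmp24 (1.09), had changes under 1.7. Of the signalling genes, the G protein subunit Gng2 changed by 1.73, the arrestin-like Arrdc4 by 1.53, Anxa6 by 1.43, the calcineurin inhibitor Rcan1 by 1.35, and Mrgprf and Tmod1 by 1.33 each.

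In the mixed group of 13, Tcea3, a tissue-restricted form of the elongation factor TFIIS, had 8.27, 8.21 and 8.43 after DAC/TSA, against 5.48, 5.74 and 5.70 in control cells, a change of 2.67 ± 0.10. That was the third largest change of all members, with every treated array far above the controls. Tmem53 (1.97), Glipr2 (1.91) and Samd12 (1.74) followed. Apol7a, H3f3a, Tmem25, H13, Pcbp3, Nacad, Tmem62, 2700046G09Rik and Fndc7 changed by 1.09 to 1.45 at the member probes. At a brighter probe, detected on all control arrays, H3f3a changed by -0.74.

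**Figure D3:**
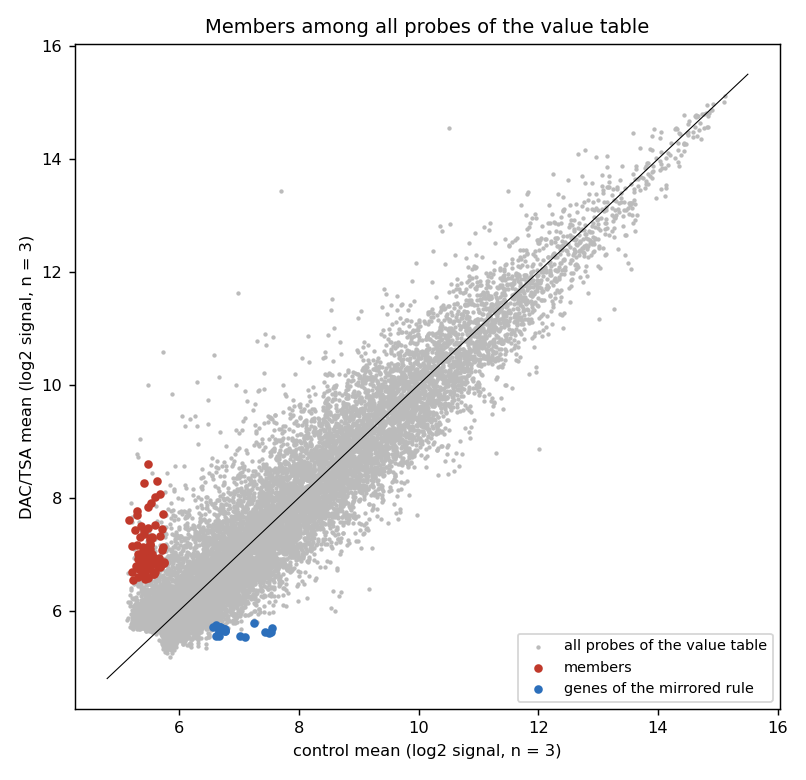
Mean after DAC/TSA (y axis) against mean in control cells (x axis), both in log2 signal with n = 3 arrays, for all probes of the value table (grey), the members (red) and genes of the mirrored rule (blue). The 77 members sit at the left edge with control means under 5.8, and the 20 genes that meet the same limits with the groups exchanged sit along the lower edge.

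With the groups exchanged, 20 genes met the same limits. Amotl2, an angiomotin family gene, had 5.61, 5.59 and 5.68 after DAC/TSA, against 7.58, 7.44 and 7.60 in control cells. Cox6a2, the heart and muscle subunit of cytochrome oxidase, had 5.55, 5.58 and 5.66 after DAC/TSA, against 7.62, 7.52 and 7.36 in control cells. Both changed by -1.91, the largest falls among the 20, and as their DAC/TSA values lie at background the size of the fall has no set order beside the changes of the members. The same symbols were left out of this count, so it stands beside the 77 members and not beside the 101 genes that met the limits before symbols were left out. Under median scaling the 20 became 12 and with no normalisation between arrays 6, while the members became 87 and 116.

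For 31 members the value table held more than 1 probe of the same gene, 46 other probes in all. By sign, 40 of these were higher and 6 lower after DAC/TSA, and 6 (of Dmkn, Gmfg, Napsa, Nnmt, Nos3 and Wnt6) met the limits too. In 14 members a brighter probe did not meet them, and for 10 of these (Bdnf, Glipr2, H13, H3f3a, Mgst3, Mmp24, Rcan1, Srr, St6galnac2 and Tex9) the brighter probe was detected on all 3 control arrays. For these 10, control cells thus held a readable signal of the same gene at another probe. The same held for Cyp27a1 at a probe of lower mean, with control values of 6.05, 6.13 and 5.86 and a change of 0.81.

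Members with a bright second probe differed in what it showed. H3f3a, a gene of histone H3.3, read 10.95 at the brighter probe after DAC/TSA, against 11.68 in control cells, a fall of 0.74 log2 units where the member probe had a change of 1.40. Srr likewise was lower at its 2 brighter probes, by -0.87 and -0.96. St6galnac2, which sialylates O-linked sugars, had -0.25 there, which missed the threshold (adjusted p = 0.0388, limma). The signal peptide peptidase gene H13 had changes of 1.69, 1.44, 0.01 and -0.69 at 4 brighter probes. For these genes, probes of 1 symbol disagreed in direction or size, and which transcript each probe reads was not analysed here.

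Other members had the same direction at both probes. Mgst3 read 10.15 at the brighter probe after DAC/TSA, against 6.67 in control cells, a change of 3.48 that exceeds the 2.37 of the member probe. Bdnf read 9.21 there after DAC/TSA, against 7.66 in control cells, a change of 1.55, and Rcan1 10.10 after DAC/TSA, against 9.24 in control cells. In 10 members another probe differed from the member probe by more than 1 log2 unit in its change, and Tcea3, Mcam, Lipn, Sort1 and Nnmt had a weaker probe. The changes there were 0.76 for Tcea3, 0.53 and 0.36 for Mcam, 0.33 for Lipn, 0.29 and 0.46 for Sort1, and 0.85 for Nnmt. A brighter probe of Sort1 changed by 2.33 and another dimmer probe of Nnmt by 2.25, near or above their member probes, so that the changes given for these 5 genes hold for the probes that met the rule. Counted by the brightest probe of each gene, limma called 74 members higher and 2 lower (H3f3a and Srr), beside 27.0% and 25.8% over all genes, and St6galnac2 was not called. As the members were chosen on this contrast, nothing is read from that share.

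**Figure D4:**
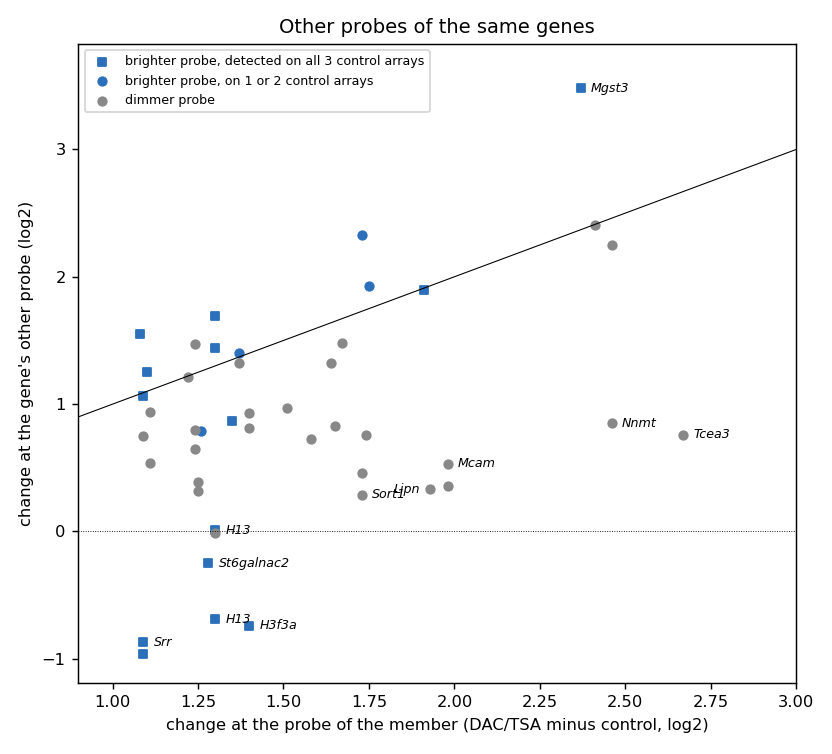
Change at the other probes of a member's gene (y axis) against change at the member's own probe (x axis), both DAC/TSA minus control in log2, with blue for brighter and grey for dimmer probes. Points on the line have equal changes. Mgst3 lies above it with 3.48, and H3f3a, Srr and 1 probe of H13 lie clearly below 0. St6galnac2 lies at -0.25, a change that missed the threshold of limma.

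Some members lie next to each other in the genome. In the RefSeq order of protein-coding genes on GRCm38.p6, Wnt6 and Wnt10a are adjacent, and Cyp27a1 is separated from Wnt6 by 1 gene, Prkag3, which was not measured here. Around these 3, Ttll4, a tubulin-modifying enzyme next to Cyp27a1, was lower (8.62 after DAC/TSA, against 9.70 in control cells, adjusted p = 3.51e-06, limma) and Rnf25 was lower by -0.62. Bcs1l (1.11), Stk36 (0.46) and Cryba2 (0.66), a lens crystallin, were higher. The neighbours therefore moved in both directions, each past the adjusted threshold, although Rnf25 and Stk36 missed it (adjusted p = 0.0296 and 0.0286, limma) under median scaling of the arrays.

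Sbsn and Dmkn are adjacent as well. Of the 5 genes on either side, Tmem147 was higher (0.64, adjusted p = 0.000131, limma), Haus5 and Ffar3 had 0.29 and 0.23 and missed the threshold, and Krtdap, the keratinocyte gene next to Dmkn, was not measured. Sprr1b and Crct1 both lie in the epidermal differentiation cluster, with 27 genes between them, of which few were measured. Between Sprr1b and Crct1, Sprr1a (0.25, adjusted p = 0.0695) and Lce1c (-0.05, adjusted p = 0.66) missed the threshold by limma. Outside that stretch, on the far side of Sprr1b, Sprr2e (0.74) and Sprr2k (0.53) were higher, the second with an adjusted p of 0.0101 under median scaling. Neither Sprr2e nor Sprr2k reached the level of the rule, with means of 6.19 and 5.78 after DAC/TSA, against 5.45 and 5.24 in control cells.

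**Figure D5:**
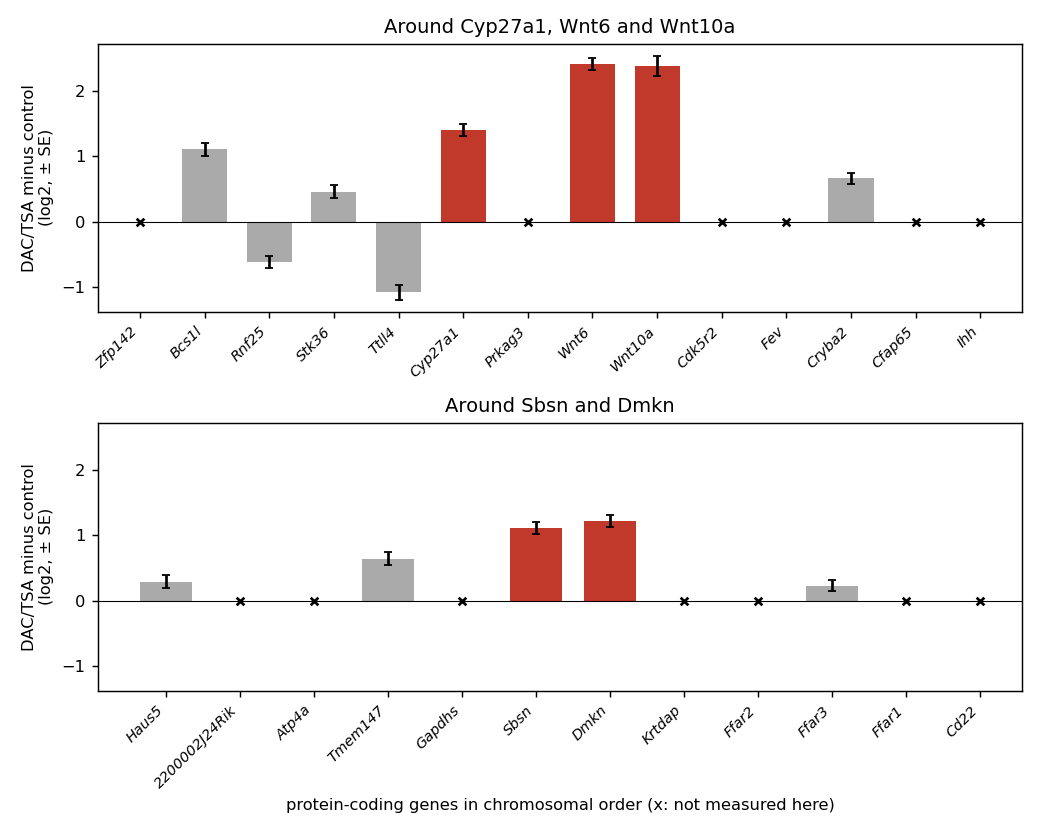
Change (DAC/TSA minus control, log2, with SE as error bars, n = 3 each) of genes in chromosomal order around Cyp27a1, Wnt6 and Wnt10a (top) and around Sbsn and Dmkn (bottom). Members are red, other measured genes are grey and crosses mark genes not measured here. Ttll4 and Rnf25 fall below 0 beside the 3 red bars of the upper panel.

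Lists of tissue genes place the members among others of their kind. A gene silent in control cells entered the table only if DAC/TSA made it detectable, so counts among measured genes lean upward and lend no support to a direction. Of 91 epithelial, skin and gland genes 27 were measured, 17 higher and 2 lower by limma with a median change of 0.80, beside 27.0% higher, 25.8% lower and a median of -0.02 over all genes. The 4 members among them are Sprr1b, Crct1, Dmkn and Sbsn. Lcn2 (lipocalin) was also higher, with 11.63 after DAC/TSA, against 6.99 in control cells. Lgals7, a galectin of stratified epithelium, fell to 7.81 after DAC/TSA, against 9.69 in control cells. Genes of 1 tissue thus moved in both directions.

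Of 93 neural and neuroendocrine genes 19 were measured, 14 higher and 3 lower with a median of 0.49, and Syp and Eno2 are the members among them. With median scaling of the arrays in place of quantile normalisation, 7 were higher and 1 lower. Uchl1, a ubiquitin hydrolase of neurons, had 9.31 after DAC/TSA, against 6.48 in control cells, and Cplx1, which clamps synaptic vesicle fusion, fell to 5.55 after DAC/TSA, against 6.66 in control cells. Of 128 leukocyte and innate immune genes 31 were measured, 15 higher and 5 lower with a median of 0.32, and Alox5ap and Ccl4 are members. Cfp (properdin) fell by 1.92 in this list.

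No member came from the lists of germline, muscle, cartilage or kidney genes. Over all genes 77 of 8734 were members, so nothing is read from a count of 0 in lists with 7 to 22 measured genes. The members Tulp2, Nlrp4c, Tex9 and Pbp2, sorted by hand with the germ cell genes, were not on the germline list. The germline genes Rhox5 and Tex19.1 met the limits, with changes of 4.51 and 1.68, but are among the symbols that the rule leaves out, and neither was on the list. Germline, placenta and early embryo genes had 7 higher and 3 lower of 13 measured among 81 listed, and muscle and heart genes 7 higher and 8 lower of 22 among 81, with a median of -0.01. Cartilage, bone and mesenchyme genes had 9 higher and 6 lower of 18 among 73, and kidney, gut and ion transport genes 5 higher of 7 among 59, with the other 2 not called. Liver, plasma protein and lipid genes had 8 higher and 3 lower of 19 among 107, with Cyp27a1 as a member. Endothelial and vessel genes had 7 higher and 4 lower of 21 among 50, with Nos3 as a member and a median of 0.03.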

How the data were processed

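Total RNA of 3 DAC/TSA and 3 control cultures of RVP3 cells was measured on 6 bead arrays. Linear probe intensities, extracted with BeadStudio version 2, were deposited by the authors for 45281 probes, each beside a detection p-value. A second deposited table gives log2 values of 15131 probes after quantile normalisation by the authors. The same normalisation was recomputed here over all probes and matched it within 5e-14. Submitters' processing notes also name limma.

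Probes were named through the platform annotation: 13126 probes of the log2 table carried 1 symbol (13113 with a current identifier) and 2005 carried none or several. The rule was applied to probes, then the probe of highest mean was kept per gene, then symbols were left out.

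For calls across all genes, probes with a detection p-value of 0.01 or less on at least 1 array (16760) were fitted with limma 3.58.1 in R 4.3.3 (lmFit, eBayes, Benjamini-Hochberg, adjusted p of 0.01 or less), and the brightest probe stood for each of 8734 genes. The scripts were tested on simulated data. The series' design calls samples of a group biological replicates. Deviations of samples with equal replicate numbers correlated at r = 0.343, 0.236 and 0.648. Numbers 1 and 2 were not separated from each other (0.368 for DAC/TSA 1 with control 2, 0.223 for DAC/TSA 2 with control 1). Number 3 correlated at -0.534 to -0.344 with numbers 1 and 2 of the other group. Deviations from a group mean sum to 0 in that group, which in part sets these signs. The number, which no label ties to a day, served as a block in an alternative. No slide or scan could be tested as a batch. Precision is limited by the number of arrays. Named are the 30 members of largest change, members nearest the limits, on a tissue list, with unequal probes or beside another member, and others chosen after their values were seen. The members, the groups by role and the lists were chosen with earlier results of these data known. Alternatives were other normalisations, limits, filters and probes, and leaving out each array.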

Additional observations from a re-analysis of the deposited data

Results flagged for a closer look

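The value table also holds probes without a single gene symbol, which enter none of the comparisons above. Of these, 10 met the same limits, with single-array values of 6.58 to 7.60 after DAC/TSA, against 5.23 to 5.8 in control cells, and changes of 1.07 to 1.95 log2 units. They were singled out because their signal lay at background in control cells, and their genes are not named here.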

How the results depend on the processing

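The number of members and their median change depended on the limits and on how the signals were processed. Against 77 members with a median change of 1.51, stricter limits (5.6 and 6.7) gave 30 and 1.71, looser limits (6.0 and 6.3) 207 and 1.13, neqc 143 and 2.00, no normalisation between arrays 116, and detection p-values in place of signal 515 and 0.54. Of the 77, 40 were among those of neqc and 74 among those of the detection rule. Median scaling gave 87 (72 shared), and keeping the brightest probe before the limits, an alternative chosen after seeing the data, gave 63. Without any 1 array, 81 to 88 genes met the limits and the median change was 1.42 to 1.49. Leaving out an array drops a condition of the rule, so all 77 remain and a count can only stay or rise. The mirrored count of 20 became 12 with median scaling, 6 with no normalisation, 0 with stricter limits, 114 with looser limits and 12 with the brightest probe first, and 21 to 25 without any 1 array.

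Across all genes, 2358 were higher and 2254 lower. Median scaling gave 1335 higher and 815 lower, so that 62.1% of called genes were higher in place of 51.1%, and the median change over all genes was 0.02. Leaving out any 1 array gave 2008 to 2385 higher and 1848 to 2322 lower. With the replicate number as a block, 2837 were higher and 2864 lower. Both groups hold the same replicate numbers, 1 array each, so the block cannot alter the changes themselves, only their errors. The 30 members of largest change stayed higher after DAC/TSA under every normalisation tried. Their changes were 2.42 to 4.07 under neqc, whose scale differs near background, and 1.54 to 3.14 without any 1 array. As the rule set the groups apart on these same arrays, the kept direction lends no support. In the tissue lists, median scaling gave 4 higher calls in place of 7 for endothelial and 3 in place of 5 for kidney genes, and 1 lower call in place of 5 for leukocyte, 5 in place of 8 for muscle, 1 in place of 4 for endothelial, 2 in place of 6 for cartilage and 2 in place of 3 for germline and liver genes. The cause of these shifts was not tested. Of the 77 members, 72 were detected on no control array, so their fitted changes rest on background values and the bounds written "at least" are smaller.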
